A study of Mus musculus with 14 samples.

Results

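Proline is made and broken down by a short set of enzymes, and 5 of their genes are described here across culture media of mouse embryonic stem cells (ESCs): Aldh18a1, Pycr1, Oat, Prodh and Aldh4a1 (Ensembl identifiers ENSMUSG00000025007, ENSMUSG00000025140, ENSMUSG00000030934, ENSMUSG00000003526 and ENSMUSG00000028737). They were chosen by name as proline enzymes, with earlier results of these data known. All 5 of the 5, among 37991 genes in the files, passed the filter on low counts that kept 16033 genes. Aldh18a1 encodes pyrroline-5-carboxylate synthase, which turns glutamate into pyrroline-5-carboxylate, and Pycr1 a mitochondrial reductase that turns that intermediate into proline. Oat encodes ornithine aminotransferase, which links the same intermediate to ornithine. Prodh encodes proline dehydrogenase, which oxidises proline back to pyrroline-5-carboxylate in mitochondria, and Aldh4a1 encodes the dehydrogenase that takes the intermediate on to glutamate. In mouse ESCs added L-proline has been described as moving cells from the naive state towards a mesenchyme-like, primed-directed one, and the title of the series sets it against vitamin C.

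All cells were C57BL/6 ESCs carrying reporters for the mir-290 cluster (mCherry) and the mir-302 cluster (eGFP). Experiment B had 2 libraries from each of 5 media, in which sparsely seeded cells spent 5 days: FBS/LIF (serum with leukemia inhibitory factor), VitC/LIF (with vitamin C at 500 µM), L-Pro/LIF (with L-proline, dose not stated for these samples), 2i/LIF (2i names inhibitors of MEK and GSK3, and only the titles name LIF) and F/A (serum-free N2B27 containing 20 ng/ml activin A and 12 ng/ml bFGF). In experiment A, single libraries came from cells positive for both reporters: at day 0 from the starting culture (serum, LIF and 100 µM vitamin C), after 5 days of serum and LIF with L-proline at 1 mM, and after 3 and 5 days of N2B27 containing 20 ng/ml activin A and bFGF at an unstated dose. The labels name no separate cultures or clones, so p-values measure only the spread between these libraries, which may be technical.

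Mapped fragments in experiment B ranged from 17778399 to 26354444 per library, except for 6937945 in F/A replicate 1. The counts per library of experiment A ranged from 33162689 to 39711061. The 9 ESC markers summed to between 4381.6 and 5110.44 CPM (counts relative to a library total that was scaled by TMM, the trimmed mean of M values) in FBS/LIF, VitC/LIF and 2i/LIF, to 2091.71 and 2133.06 CPM in L-Pro/LIF and to 1464 and 1667.56 CPM in F/A, and each was detected in every medium. The ESC markers did not all move together. In F/A the means of Dppa5a, Zfp42 and Esrrb were 2.68, 1.65 and 1.21 CPM, against 1443, 451 and 163 CPM in FBS/LIF. Pou5f1 was at 485 against 882 CPM, and Lin28a was higher in F/A, at 701 against 537 CPM. Markers of other cell types also moved with the media. The 8 fibroblast markers summed to 4.16 and 4.5 CPM in FBS/LIF, where Lum and Postn were at 0, to 13.8 and 14.2 CPM in L-Pro/LIF and to 16.9 and 20.9 CPM in F/A, where none was at 0. The 6 genes listed as primitive endoderm markers summed to 42.7 and 48.6 CPM in F/A and to at most 6.33 CPM in any other library. They did not all move together: 5 were called higher in F/A over FBS/LIF, and Sox7 was not. Foxa2 had a mean of 22.0 CPM in F/A and Sox7 of 0.329 CPM, against 0.584 and 0.513 CPM in FBS/LIF. The sum alone does not name a cell type. In bulk RNA fewer cells of a type and less RNA per cell cannot be told apart.

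Promoter stretches of 3 of the genes are shown because their transcripts moved most between media. Each stretch is the 150 bases before the RefSeq start on GRCm38.p6, a later build than that of the files (mm9), 5′ to 3′ on the minus strand, with Aldh18a1 at chr19:40588464-40588613, Pycr1 at chr11:120643749-120643898 and Oat at chr7:132576399-132576548. Capitals mark a match to CACGTG, the E-box, or to TGATGNAA, the composite C/EBP-ATF element that amino acid response genes carry.
Aldh18a1: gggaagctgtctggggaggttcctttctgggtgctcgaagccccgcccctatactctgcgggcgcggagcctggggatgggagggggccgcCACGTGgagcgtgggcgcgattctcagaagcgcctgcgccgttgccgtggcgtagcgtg
Pycr1: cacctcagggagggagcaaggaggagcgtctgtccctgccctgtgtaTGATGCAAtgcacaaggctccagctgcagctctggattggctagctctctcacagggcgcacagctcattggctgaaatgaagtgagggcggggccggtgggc
Oat: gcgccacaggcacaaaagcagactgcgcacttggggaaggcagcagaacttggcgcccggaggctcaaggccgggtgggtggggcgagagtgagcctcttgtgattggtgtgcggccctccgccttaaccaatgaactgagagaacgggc
Aldh18a1 held CACGTG 59 bases before its start, and Pycr1 held TGATGCAA 103 bases before its start. Neither motif, searched on both strands, matched in the 300 bases around the start (250 before, 50 after) of Oat, Prodh or Aldh4a1. Among 32851 RefSeq promoter windows of that length, 3.97% held TGATGNAA and 7.15% held CACGTG. The motifs share no stretch in these windows, and a match is a description, not a site.

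The genes differed in how far they moved between media. Oat spanned the widest range, with its highest medium mean 5.13-fold above its lowest, and 8 of 10 pairs of media differed by the test (edgeR quasi-likelihood F test, Benjamini-Hochberg adjusted p under 0.05 over all genes tested). Pycr1 spanned 2.97-fold with 4 of 10 pairs called, and Aldh18a1 spanned 1.91-fold with 7 of 10. Prodh spanned 1.64-fold with 4 of 10, and none of its 4 calls held by limma on FPKM (adjusted p between 0.0867 and 0.116). Aldh4a1 spanned 1.26-fold with 0 of 10 called by edgeR, where 1 pair had an unadjusted p under 0.05 and DESeq2 called 1.

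**Figure D1:**
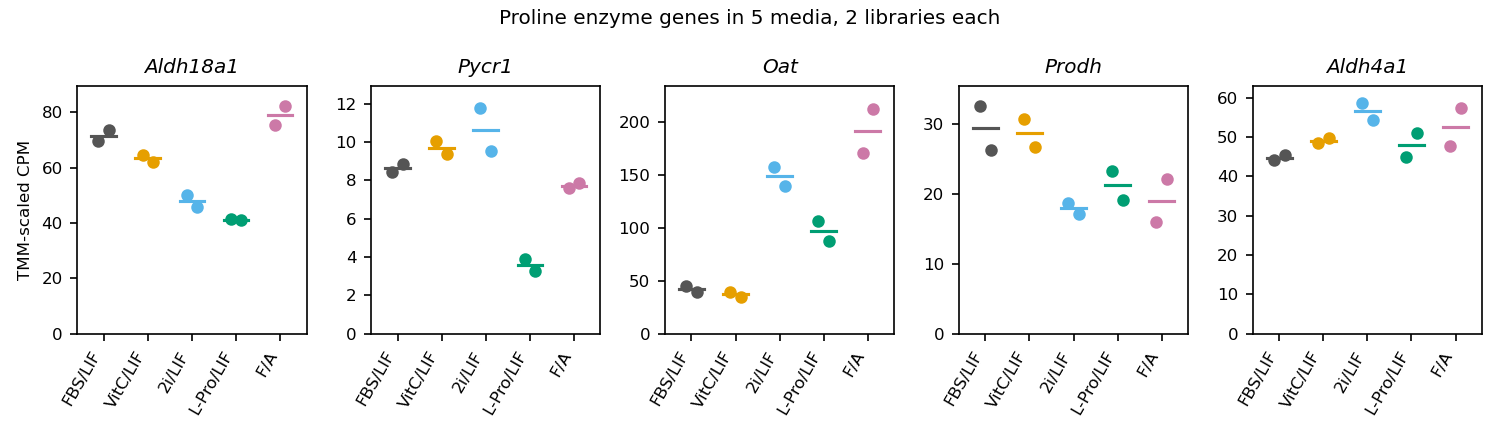
TMM-scaled CPM (vertical axes, from 0) of the 5 proline enzyme genes in each library (points) of 5 media, with the mean of 2 libraries as a bar. Aldh18a1 and Pycr1 lie lowest in L-Pro/LIF, at means of 41.2 and 3.59 CPM, and Oat lies highest in F/A, at a mean of 192 CPM.

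Aldh18a1, the entry step from glutamate, was lowest in L-proline. Its level was 69.6 and 73.5 CPM in FBS/LIF, 64.6 and 62.0 CPM in VitC/LIF, 50.1 and 45.9 CPM in 2i/LIF, 41.3 and 41.1 CPM in L-Pro/LIF and 75.3 and 82.3 CPM in F/A. No 2 media overlapped among these libraries. The order was F/A, FBS/LIF, VitC/LIF, 2i/LIF and L-Pro/LIF, and of the 4 neighbouring pairs only VitC/LIF and 2i/LIF differed by the test (adjusted p = 0.0235). That call was lost without any 1 of the 4 libraries of those media, at adjusted p between 0.0824 and 0.179, with no filter (0.0872) and by limma (0.154 and 0.163).

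Pycr1 was low everywhere and lowest in L-proline. It stood at 8.46 and 8.86 CPM in FBS/LIF, 10.1 and 9.37 CPM in VitC/LIF, 11.8 and 9.53 CPM in 2i/LIF, 3.90 and 3.28 CPM in L-Pro/LIF and 7.61 and 7.85 CPM in F/A. Both L-Pro/LIF libraries lay below each of the other 8, and the other 4 media did not differ between neighbours in the order. The estimated counts behind these levels were 85 and 83 fragments in L-Pro/LIF, 60 in the shallow F/A replicate 1 and 157 to 222 elsewhere, so Pycr1 carries the least depth of the 5.

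Oat split the media into a low and a high set. It stood at 44.8 and 39.9 CPM in FBS/LIF and 40.0 and 34.7 CPM in VitC/LIF, against 107 and 87.4 CPM in L-Pro/LIF, 158 and 140.3 CPM in 2i/LIF and 171 and 212 CPM in F/A. FBS/LIF and VitC/LIF overlapped, while every library of the other 3 media lay above them. In the order from F/A through 2i/LIF and L-Pro/LIF to FBS/LIF and VitC/LIF, F/A and 2i/LIF did not differ by the test (adjusted p = 0.0701). That step was called by limma (0.59, adjusted p = 0.0148 with pseudocount 1) and by edgeR without F/A replicate 1 (0.45, adjusted p = 0.0477). The step from 2i/LIF to L-Pro/LIF was called (adjusted p = 0.0106), but not without 2i/LIF replicate 1 (adjusted p = 0.0884) or without L-Pro/LIF replicate 2 (adjusted p = 0.104).

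Prodh, the first step of breakdown, stood at 32.5 and 26.2 CPM in FBS/LIF, 30.6 and 26.7 CPM in VitC/LIF, 23.3 and 19.1 CPM in L-Pro/LIF, 16.0 and 22.1 CPM in F/A and 18.7 and 17.2 CPM in 2i/LIF. The FBS/LIF and VitC/LIF libraries lay above the other 6, and no neighbouring pair in the order differed by the test. Aldh4a1, the second step, stood at 44.1 and 45.3 CPM in FBS/LIF, 48.6 and 49.6 CPM in VitC/LIF, 44.9 and 51.0 CPM in L-Pro/LIF, 47.7 and 57.5 CPM in F/A and 58.7 and 54.4 CPM in 2i/LIF. Neighbouring media overlapped at each of the 4 steps of its order, from 2i/LIF at the top to FBS/LIF at the bottom. Dgcr6, which overlaps Prodh on the other strand in a later annotation, reached at most 15.2 CPM, and Fgfr2, which overlaps Oat on the same strand, at most 38.3 CPM. The strand setting of the counting is not given in the sources used here, so strand cannot be relied on to separate fragments in the shared part of Prodh and Dgcr6. By the annotation of the files, hits unique to the gene were 93.7 to 99.7% of the estimated count of Prodh. For Oat they were 100.1 to 100.8%, slightly above the estimate itself.

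In L-Pro/LIF against FBS/LIF, the synthesis genes Aldh18a1 and Pycr1 fell and Oat rose, 3 of 5 genes called against 24% of all genes tested. Aldh18a1 changed by -0.80 ± 0.10 on the log2 scale (SE, 2 libraries a medium throughout, edgeR adjusted p = 0.00096), a 1.74-fold decrease. Pycr1 changed by -1.27 ± 0.19 (adjusted p = 0.002), a 2.41-fold decrease. Oat changed by 1.20 ± 0.16 (adjusted p = 0.00095), a 2.29-fold increase. Prodh gave -0.47 ± 0.19 (adjusted p = 0.104) and Aldh4a1 gave 0.10 ± 0.13 (adjusted p = 0.62). For Prodh both L-Pro/LIF libraries lay below both FBS/LIF libraries, which 2 libraries a medium can show without a difference in level. The median over the 5 genes was -0.47, against 0.01 over all genes tested. The same 3 genes were called without any 1 of the 4 libraries. In the same comparison 4 of the 6 tested fibroblast markers (Col1a1, Col1a2, Dcn and Twist2) were called higher. Without 1 library at a time 2 to 3 were, and it was 2 when replicate 1 of either medium was left out. Their part in these results was not tested.

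**Figure D2:**
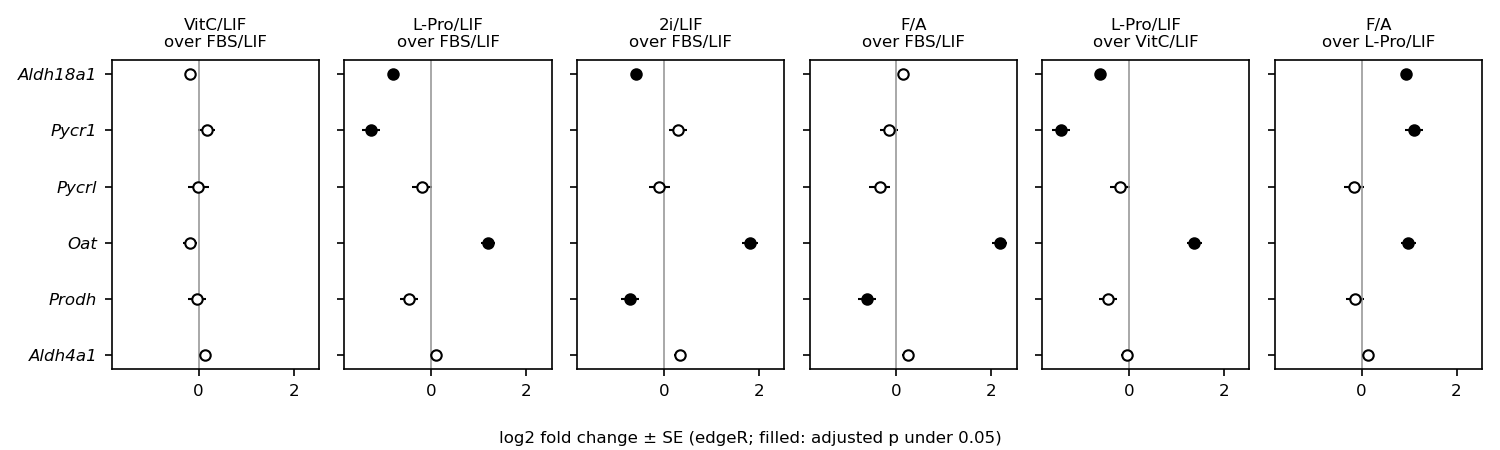
log2 fold change ± SE (horizontal axes, edgeR) of the 5 genes and the related reductase gene Pycrl in 6 comparisons, with filled points for an adjusted p under 0.05. Aldh18a1 and Pycr1 lie at -0.80 and -1.27 in L-Pro/LIF over FBS/LIF, where Oat lies to the right of 0.

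Vitamin C against plain FBS/LIF gave no call among the 5 genes by edgeR, where 0.674% of all genes tested were called. None had an unadjusted p under 0.05, and DESeq2 called 0 of them as well. The values ranged from -0.18 ± 0.16 for Oat to 0.16 ± 0.19 for Pycr1. Aldh18a1 gave -0.18 ± 0.10, with both VitC/LIF libraries below both FBS/LIF libraries. With 2 libraries a medium, such a separation can arise without a difference in level. A p that misses the threshold does not show that the media act alike on these genes.

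L-Pro/LIF set directly against VitC/LIF gave the same 3 calls among the 5 genes, against 29.8% of all genes tested. Aldh18a1 changed by -0.62 ± 0.10 (adjusted p = 0.0024), Pycr1 by -1.44 ± 0.19 (adjusted p = 0.00076) and Oat by 1.38 ± 0.16 (adjusted p = 0.00032). Prodh gave -0.44 ± 0.19 (adjusted p = 0.117) and Aldh4a1 gave -0.03 ± 0.13 (adjusted p = 0.87). This comparison and that with FBS/LIF share the L-Pro/LIF libraries. The 3 calls held without any 1 of the 4 libraries.

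In 2i/LIF against FBS/LIF, Oat rose, and Aldh18a1 and Prodh fell, 3 of 5 genes against 30.4% of all genes tested. Oat changed by 1.81 ± 0.16 (adjusted p = 7.0e-05), a 3.52-fold increase, and Aldh18a1 by -0.58 ± 0.10 (adjusted p = 0.0035), a 1.49-fold decrease. Prodh changed by -0.71 ± 0.19 (adjusted p = 0.0207), a call lost without FBS/LIF replicate 1 (adjusted p = 0.143), 2i/LIF replicate 1 (0.0856) or 2i/LIF replicate 2 (0.128). Pycr1 gave 0.30 ± 0.19 (adjusted p = 0.273) and Aldh4a1 gave 0.34 ± 0.13 (adjusted p = 0.0748), which unique hits (0.0396) and DESeq2 (0.0499) called. The difference between 2i/LIF and L-Pro/LIF was itself called for Pycr1, which was 2.97-fold lower in L-Pro/LIF (-1.57 ± 0.19, adjusted p = 0.00023), and not for Aldh18a1 (-0.22 ± 0.10, adjusted p = 0.122). In that comparison 2 of 5 genes were called against 44.6% of all genes tested.

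F/A against FBS/LIF called 2 of the 5 genes against 46.4% of all genes tested. Oat rose by 2.18 ± 0.16 on the log2 scale (adjusted p = 2.2e-05), a 4.52-fold increase. Prodh changed by -0.61 ± 0.19 (adjusted p = 0.0278), a call lost without FBS/LIF replicate 1 (adjusted p = 0.174) or F/A replicate 1 (0.127). Aldh18a1 gave 0.14 ± 0.10 (adjusted p = 0.292), Pycr1 -0.16 ± 0.19 (adjusted p = 0.508) and Aldh4a1 0.24 ± 0.13 (adjusted p = 0.155). Limma with pseudocount 1 called Aldh18a1 at 0.37 (adjusted p = 0.0443) and Aldh4a1 at 0.41 (adjusted p = 0.0199), and did not call Prodh (adjusted p = 0.116). Without F/A replicate 1 edgeR called Aldh4a1 at 0.35 (adjusted p = 0.0465). Of the 6 tested fibroblast markers 4 were called higher in F/A, and of the 6 primitive endoderm markers 5 were, with Foxa2 highest among the latter at up to 22.8 CPM. Sox7, the remaining primitive endoderm marker, gave -0.86 (adjusted p = 0.514), with means of 0.329 CPM in F/A and 0.513 CPM in FBS/LIF. In 2i/LIF the fibroblast markers summed to 1.23 and 2.01 CPM and the primitive endoderm markers to 1.64 and 1.74 CPM, both below FBS/LIF. The part of these markers in the level of Oat in F/A or 2i/LIF was not tested.

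F/A and L-Pro/LIF were the media with the lowest summed ESC markers, and between them 3 of 5 genes were higher in F/A, against 22% of all genes called in either direction and 11.1% called higher. Aldh18a1 changed by 0.94 ± 0.10 (adjusted p = 0.00096), a 1.91-fold increase, and Oat by 0.98 ± 0.15 (adjusted p = 0.0049), a 1.98-fold increase. Pycr1 changed by 1.11 ± 0.19 (adjusted p = 0.0076), a 2.16-fold increase that was not called without L-Pro/LIF replicate 2 (adjusted p = 0.0551). Prodh gave -0.14 ± 0.19 and Aldh4a1 0.14 ± 0.13, and the libraries of the media overlapped for both. F/A against VitC/LIF called 3 of 5 genes against 50.5% of all genes tested, with Oat at 2.36 ± 0.16. Aldh18a1 (0.32 ± 0.10) and Prodh (-0.58 ± 0.19) were called there as well, but neither was without VitC/LIF replicate 1 (adjusted p = 0.133 and 0.16) or VitC/LIF replicate 2 (0.19 and 0.0577), nor Aldh18a1 without F/A replicate 2 (0.263) or Prodh without F/A replicate 1 (0.149). By unique hits (0.0697) and with no filter (0.218) Aldh18a1 was not called there either. F/A against 2i/LIF called only Aldh18a1 of the 5 (0.72 ± 0.10, adjusted p = 0.0005), against 58.4% of all genes tested, and 2i/LIF against VitC/LIF called Oat (2.00 ± 0.16), Aldh18a1 and Prodh, 3 of 5 against 24.5%. The Prodh call (-0.68 ± 0.19) was also lost without any 1 of the 4 libraries of 2i/LIF and VitC/LIF, at adjusted p between 0.0761 and 0.177.

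Pycrl (also named Pycr3) encodes a cytosolic reductase for the last step of synthesis. Pycrl gave 0 calls in the 10 pairs of media by edgeR and by DESeq2, with an unadjusted p under 0.05 in 0 of them, and its level lay between 19.3 and 33.7 CPM. Prodh2, the relative of Prodh that acts on hydroxyproline, had at most 4 estimated fragments in any library and stayed below the filter.

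Levels of different genes can be set side by side only per length, as FPKM (fragments scaled by transcript length and library total). On that scale Pycrl stood above Pycr1 in each of the 10 libraries, at 25.1 and 19.3 FPKM against 3.33 and 2.94 FPKM in L-Pro/LIF. The FPKM of Pycr1 rests on 6 transcripts whose mix moved its effective length between 1066 and 1735 bases, so the CPM values above compare one gene across media more directly.

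The ratio between transcripts of the glutamate and ornithine branches differed as well. Oat FPKM divided by Aldh18a1 FPKM was 1.00 and 0.863 in FBS/LIF and 1.02 and 0.851 in VitC/LIF. It was 3.56 and 3.24 in L-Pro/LIF, 4.62 and 4.36 in 2i/LIF and 3.13 and 4.35 in F/A. The 4 libraries of FBS/LIF and VitC/LIF thus held about equal levels of both transcripts per length, and the other 6 held 3.13 to 4.62 times as much Oat. Aldh18a1 divided by Prodh, a synthesis transcript over a breakdown transcript, was 1.03 to 1.74 in the 8 libraries other than F/A and 3.49 and 2.04 in F/A. The 3.49 is from the shallow F/A replicate 1. Effective lengths also moved for Aldh18a1 (2625 to 3295 bases) and Prodh (1499 to 1950 bases). These ratios are of RNA and measure no flux.

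**Figure D3:**
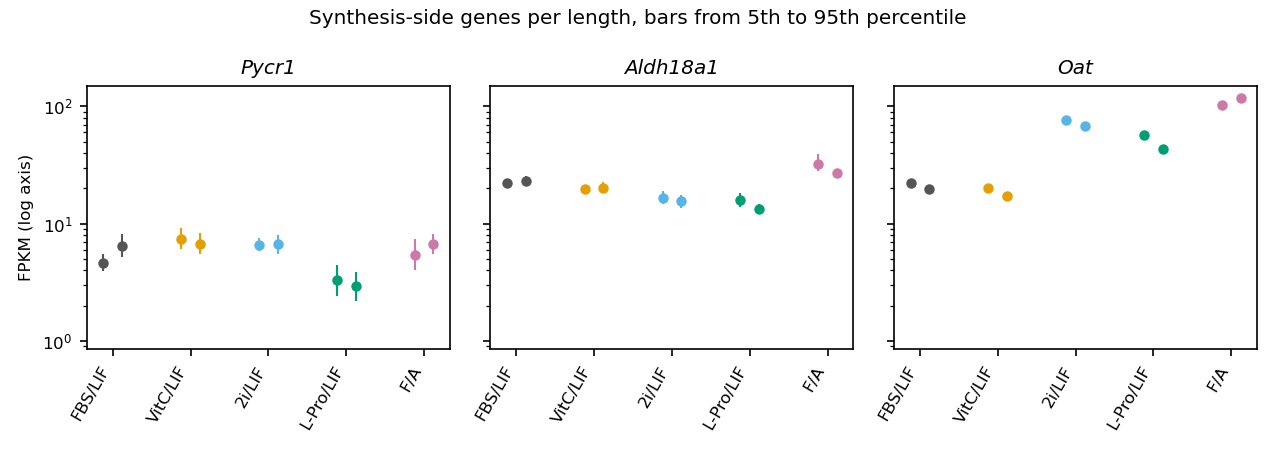
FPKM on a log axis of Pycr1, Aldh18a1 and Oat in each library of 5 media, with bars from the 5th to the 95th percentile of the deposited estimate where wider than the point. In FBS/LIF Oat and Aldh18a1 lie side by side, at 22.4 and 19.9 FPKM against 22.3 and 23.1 FPKM, and in F/A Oat reaches 102 and 118 FPKM.

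Experiment A gave the same genes in single libraries, with no replicate and therefore no test. Aldh18a1 stood at 127 CPM at day 0 (95% counting interval 124 to 131, exact Poisson), 44.2 CPM after L-proline (42.2 to 46.4), 78.4 CPM at F/A day 3 (75.5 to 81.3) and 114 CPM at F/A day 5 (110.4 to 118). Pycr1 stood at 36.1 CPM at day 0 (34.1 to 38.2), 5.93 CPM after L-proline (5.19 to 6.74), 18.5 CPM at F/A day 3 (17.2 to 20.0) and 19.6 CPM at F/A day 5 (18.2 to 21.2). Both were lowest in the L-proline library. Intervals cover counting error only.

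Oat stood at 44.5, 56.5, 119 and 209 CPM in the same order of libraries, higher at F/A day 5 than at F/A day 3. Prodh stood at 15.9, 19.9, 31.1 and 18.8 CPM, highest at F/A day 3, and Aldh4a1 at 44.6, 61.0, 51.8 and 70.4 CPM. Pycrl stood at 31.8, 28.8, 27.8 and 25.3 CPM.

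L-proline at day 5 over day 0 put Aldh18a1 at a ratio of 0.347 (interval 0.328 to 0.367) and Pycr1 at 0.164 (0.142 to 0.189), 2 of 5 genes past 2-fold against 35.5% of all genes with at least 1 CPM. Oat, past 2-fold in experiment B, was at 1.27 (1.19 to 1.36) here, and Prodh was at 1.25 (1.12 to 1.40), above 1 where experiment B gave -0.47 on the log2 scale. The day 0 cells had vitamin C and were taken before the 5 days, so the comparisons differ in their control. With VitC/LIF as the control in experiment B, Oat gave 1.38 and Prodh -0.44 (not called) on the log2 scale. Experiment A also held only cells positive for both reporters, in single libraries with another RNA extraction. The part of these differences was not tested. F/A day 5 over day 0 put Oat at 4.69 (4.43 to 4.96), 1 of 5 past 2-fold against 37.3%, and Pycr1 at 0.544 (0.494 to 0.599). F/A day 3 over day 0 also put only Oat past 2-fold, at 2.67 (2.52 to 2.83) against 30.8%, with Prodh at 1.957 (1.76 to 2.17). F/A day 5 over day 3 put none of the 5 past 2-fold against 19.6%, and Prodh was at 0.605 (0.548 to 0.667).

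At day 5, F/A over L-proline put 3 of 5 genes past 2-fold upward, against 14.1% in either direction and 6.12% upward. Aldh18a1 was at 2.58 (2.43 to 2.73), Pycr1 at 3.32 (2.85 to 3.87) and Oat at 3.69 (3.52 to 3.88). Prodh was at 0.947 (0.851 to 1.05) and Aldh4a1 at 1.15 (1.09 to 1.22). These are the 3 genes called higher in F/A over L-Pro/LIF in experiment B. In the same pair of libraries 3 of the 6 primitive endoderm markers were past 2-fold upward and 1 downward, and 4 of the 9 ESC markers were downward. Of the 5 fibroblast markers with at least 1 CPM there, 3 were past 2-fold downward and 1 upward. The markers' part in these ratios was not tested.

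**Figure D4:**
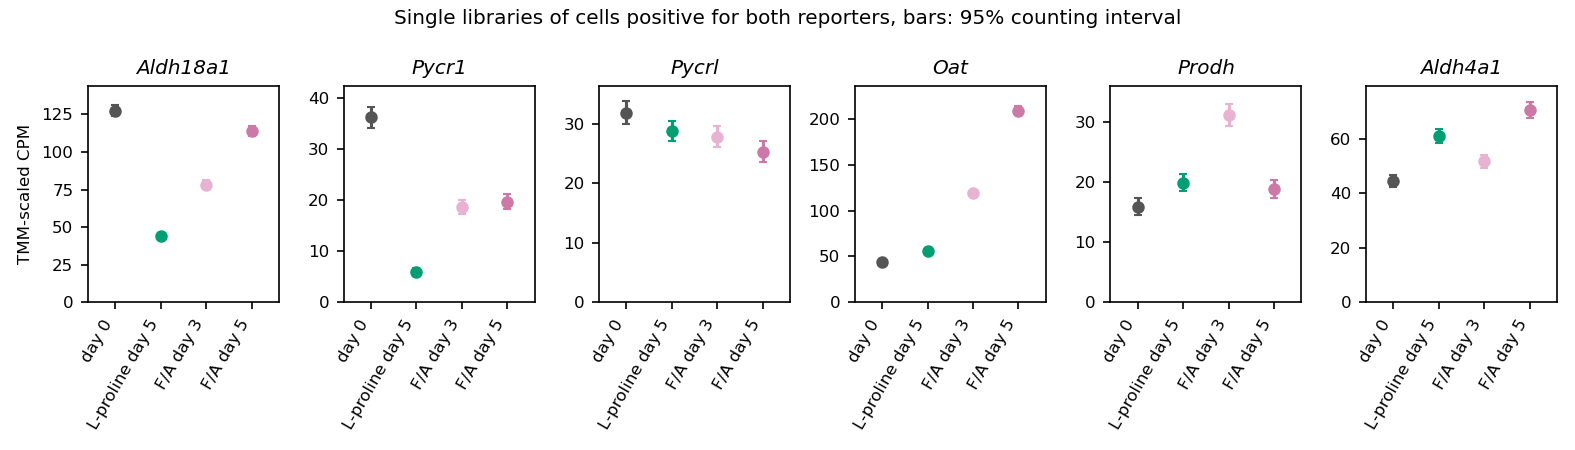
TMM-scaled CPM (vertical axes, from 0) of the proline enzyme genes and Pycrl in the 4 single libraries of experiment A, with 95% exact Poisson counting intervals. Aldh18a1 and Pycr1 are lowest in the L-proline library, at 44.2 and 5.93 CPM, and Oat is highest at F/A day 5, at 209 CPM.

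Genes around the proline steps were followed as lists. Of 14 genes that handle glutamate and ornithine, with Pycrl and Prodh2 among them, 12 passed the filter. In L-Pro/LIF over FBS/LIF 1 was called higher and 4 lower, against 24% of all genes tested. Ass1 (argininosuccinate synthase) changed by -1.27 (adjusted p = 0.00063) and Gpt2, a mitochondrial alanine transaminase that works on glutamate, by -1.33 (adjusted p = 0.00012). Glul (glutamine synthetase) changed by -0.97 (adjusted p = 0.0031). Odc1, which takes ornithine to polyamines, gave -0.13, and Glud1 (glutamate dehydrogenase) gave -0.05, neither called. In 2i/LIF over FBS/LIF 3 were higher and 3 lower, against 30.4% of all genes tested, with Glul at -1.65 (adjusted p = 0.00013) and Gpt2 at -0.77 (adjusted p = 0.0012) among the lower. Ass1 was higher by 0.76 there (adjusted p = 0.0056), a call lost without 2i/LIF replicate 1 (0.0559) or FBS/LIF replicate 2 (0.0566). Without any one of the 4 libraries 0 were called higher in L-Pro/LIF over FBS/LIF. In 2i/LIF over FBS/LIF 0 were called higher without 2i/LIF replicate 1 or FBS/LIF replicate 2. In F/A over FBS/LIF 1 was higher and 6 were lower, against 46.4% of all genes tested, with Ass1 at -1.90 (adjusted p = 4.0e-05), Glul at -1.40 (adjusted p = 0.00026) and Glud1 at -0.59 (adjusted p = 0.0029). The Glud1 call was lost by limma. The higher one was Arg1 (arginase), with means of 0.0697 CPM in FBS/LIF and 1.68 CPM in F/A.

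Genes of proline uptake, release from peptides and tRNA charging gave 14 tested of 16. In L-Pro/LIF over FBS/LIF 4 were called, near the 24% of all genes tested. The 3 higher included the amino acid transporters Slc6a15 at 1.09 (adjusted p = 0.00061) and Slc36a4 at 1.07 (adjusted p = 0.0035), and the 1 lower was the glutamyl-prolyl-tRNA synthetase gene Eprs at -0.47 (adjusted p = 0.0349). Without any 1 of the 4 libraries Eprs was not called. Slc38a2 and Slc38a4, transporters of neutral amino acids with the highest levels of the list's other members, gave -0.30 and 0.03, neither called. In 2i/LIF over FBS/LIF 3 were higher and 4 lower, against 30.4% of all genes tested. The proline transporter Slc6a7 changed by 4.13 there (adjusted p = 0.0011), from 0.488 to 8.63 CPM, and Slc36a4 by -1.93 (adjusted p = 0.00016). In F/A over FBS/LIF 2 were higher and 4 lower, near the 46.4% of all genes tested, with Slc38a4 at -1.73 (adjusted p = 2.2e-05) and Slc36a4 at 1.66 (adjusted p = 0.00021). Without FBS/LIF replicate 1 or F/A replicate 1 the higher calls there numbered 1, and the lower calls ranged from 3 to 6 without 1 library at a time. Hydroxyproline breakdown gave 4 tested genes of 6, of which 1, Grhpr (glyoxylate reductase), was called higher in 2i/LIF over FBS/LIF (1.12, adjusted p = 0.0025), a call lost by limma.

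A list of 29 genes of the amino acid response driven by the transcription factor ATF4, all tested, was also followed. Gpt2 stands on this list and on that of glutamate and ornithine genes, and Atf4 on this list and among the regulators below. Got2 and Prodh2 stand on the lists of glutamate and ornithine genes and of hydroxyproline breakdown. In L-Pro/LIF over FBS/LIF 19 of 29 were lower and 2 higher, against 24% of all genes called, with a median of -0.63 against 0.01 over all genes tested. Trib3, a pseudokinase gene, changed by -1.99 (adjusted p = 3.3e-05), Chac1, which breaks down glutathione, by -2.10 (adjusted p = 0.00082) and Nupr1, a stress-response regulator, by -2.52 (adjusted p = 0.0017). Without 1 of the 4 libraries at a time, 10 to 13 of the list were lower, and 1 was higher each time. The list's summed level was 2767 and 2816 CPM in L-Pro/LIF, 4298 and 4478 CPM in FBS/LIF, 3868 and 4086 CPM in VitC/LIF, 3654 and 3829 CPM in 2i/LIF and 3330 and 4051 CPM in F/A. The L-Pro/LIF libraries lay below all others in this sum, as they did for Aldh18a1 and Pycr1. The sum leans on abundant genes. Asns alone had a mean of 889 CPM in 2i/LIF, against 156 CPM in L-Pro/LIF and 228 CPM in FBS/LIF.

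The list did not follow one pattern with the proline genes in the other media. In 2i/LIF over FBS/LIF 19 of 29 were lower and 1 higher (median -0.77), against 30.4% of all genes called, while Pycr1 gave 0.30. The 1 higher was Asns (asparagine synthetase) at 1.97 (adjusted p = 3.2e-05), and Cebpb, a C/EBP factor gene, was at -2.97 (adjusted p = 0.00077). In F/A over FBS/LIF 5 were higher and 9 lower (median -0.12), near the 46.4% of all genes called, with Atf3, a stress-induced factor gene, at 2.39 (adjusted p = 6.0e-05). Without 1 library at a time the lower calls there numbered 7 to 14, the highest without F/A replicate 2, and the higher calls 3 to 4, the lowest without FBS/LIF replicate 2. In F/A over L-Pro/LIF 14 were called, each of them higher (median 0.34), against 11.1% of all genes called higher, led by Slc7a11, the cystine transporter gene, at 2.79 (adjusted p = 0.0024). Without L-Pro/LIF replicate 1 the higher calls fell to 6, and without F/A replicate 2 there were 13 higher and 2 lower. VitC/LIF over FBS/LIF gave 0 calls in this list by edgeR, where 6 of 29 had an unadjusted p under 0.05 and DESeq2 called 3.

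Of the 8 regulators that were listed, 7 were tested. In L-Pro/LIF over FBS/LIF 2 were called, near the 24% of all genes tested. Both were lower: Mycn, a Myc family gene, at -1.08 (adjusted p = 0.0012), and Atf4 itself at -0.62 (adjusted p = 0.0154). Atf4 was already counted among the lower genes of the ATF4 list. The Atf4 call was lost without any 1 of the 4 libraries. In F/A over L-Pro/LIF 3 were higher and 1 lower, against 22% of all genes tested. Atf4 changed by 0.80 (adjusted p = 0.0086), lost without either L-Pro/LIF library, and Mycn by -0.81 (adjusted p = 0.009), lost without either as well. Myc changed by 1.69 (adjusted p = 0.0346) and Foxo1 by 1.48 (adjusted p = 0.0457), both lost without L-Pro/LIF replicate 1 or F/A replicate 1. In 2i/LIF over FBS/LIF 2 were called, both lower, near the 30.4% of all genes tested. Mycn changed by -2.13 there (adjusted p = 2.8e-05), while Atf4 gave -0.26 and was not called.

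Among 8423 named genes that averaged 10 CPM or more and drew 50% or more of their estimate from unique hits, the 3 whose profile over the 10 libraries was most like each enzyme were found by the root mean square difference of centred log2 CPM. For Aldh18a1 these were Iars (0.143), Atf4 (0.148) and Arrdc4 (0.172), where Aldh18a1 itself varied by 0.354. For Pycr1 they were Camk1d (0.216), Pck2 (0.229) and Trak1 (0.231), against its own 0.558. For Oat they were Tm7sf2 (0.196), Cd55 (0.212) and Ptprj (0.224), against its own 0.952. Prodh had Nup37 (0.0969), Ppp2r3c (0.109) and Lars (0.112), against its own 0.332, and Aldh4a1 had Fbxo45 (0.071), Pold3 (0.0758) and Kansl3 (0.0778), against its own 0.138. No enzyme was among the 3 most like another, but Pycr1 averaged under 10 CPM and so was not among the genes searched. The smallest difference between 2 enzymes was that of Aldh18a1 and Aldh4a1 (0.394), and the largest that of Prodh and Oat (1.24). The 0.394 exceeded the own variation of Aldh18a1 (0.354) and Aldh4a1 (0.138), so it does not show that their profiles were alike.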

How the data were processed

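The files of experiment A are the authors' raw counts by Ensembl gene, and the submitters' processing notes name CASAVA, TopHat2 2.0.13 and HTSeq 0.6.1p1 on mm9 (NCBIM37). For experiment B the deposited files hold, per the file headers, the natural log of an FPKM-scaled estimate, with other columns for unique hits, effective length and transcripts per gene. Bowtie and DESeq also stand in the notes, with no role given. Estimated counts were obtained by undoing the scaling of the deposited natural log values and rounding. Extraction differed (Trizol in A, RNeasy in B), and the experiments were never pooled. The 2 combined tables of the authors were not used.

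Genes were kept with filterByExpr, scaled by TMM and tested with edgeR 4.0.16 (R 4.3.3) in 1 model of all 10 libraries of experiment B with a term per medium. SE was derived from the fold change and the F statistic, and CPM is TMM-scaled. Experiment A received ratios and counting intervals. Alternatives used unique hits, DESeq2 1.42.0, RLE scaling, no filter, limma 3.58.1 on log2(FPKM + 1) and log2(FPKM + 0.1), a replicate block, and each library left out. On data simulated for L-Pro/LIF over FBS/LIF (15532 genes), 53 of 100 genes changed 2-fold and 93 of 100 changed 4-fold were recovered, with 5 false calls. Only these genes were changed there, all upward, whereas 24% of all genes tested were called in the data. The share recovered need therefore not hold for the data.

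The enzymes, the 9 lists (97 genes) and the tests were chosen with earlier results of these data known. The 5 enzymes were named throughout. Some related genes are not reported here. From the other lists, a comparison named at most the 3 called genes that changed most and the 2 most abundant of the rest, with Sox7 added in F/A over FBS/LIF. Symbols came from GENCODE vM21, matching 32919 of 37991 identifiers. Promoter sequences are RefSeq's, with 5 of 5 matched.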

Additional observations from a re-analysis of the deposited data

How the results depend on the processing

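Of 550 values of the 5 enzymes under the 11 alternatives over 10 pairs of media, 483 kept their direction and side of the threshold, 35 lost the call, 13 gained one and 19 changed sign. No value that changed sign was called in the main test. L-Pro/LIF over FBS/LIF and over VitC/LIF gave 3 enzymes in every alternative, and VitC/LIF over FBS/LIF gave 0. Leaving out 1 library at a time gave 2 to 3 in 2i/LIF over FBS/LIF, 1 to 2 in F/A over FBS/LIF (1 without FBS/LIF replicate 1), 2 to 3 in F/A over L-Pro/LIF, 1 to 1 in 2i/LIF over VitC/LIF, 1 to 2 in L-Pro/LIF over 2i/LIF, 1 to 2 in F/A over 2i/LIF and 1 to 2 in F/A over VitC/LIF. Fewer libraries also leave fewer degrees of freedom. Limma gave 1 in 2i/LIF over VitC/LIF with either pseudocount, and unique hits, RLE scaling and limma with either pseudocount gave 2 in F/A over 2i/LIF; the cause was not tested. In experiment A, CPM of the library total put 2 enzymes past 2-fold in F/A day 3 over day 0.

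Sign changes under limma, with pseudocounts 1 and 0.1, were Prodh in VitC/LIF over FBS/LIF (0.0168, 0.0173), Pycr1 in F/A over FBS/LIF (0.116, 0.135), Pycr1 in 2i/LIF over VitC/LIF (-0.0715, -0.0806) and Aldh4a1 in F/A over 2i/LIF (0.0913, 0.0959). By unique hits Prodh turned in F/A over 2i/LIF (-0.0129), and Pycrl turned in VitC/LIF over FBS/LIF by RLE scaling (0.00242) and DESeq2 (0.00244). The cause was not tested.

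Leaving out 1 library at a time spanned 0 for several uncalled log2 values. Aldh18a1 ran from -0.0208 to 0.195 in F/A over FBS/LIF, and Pycr1 from -0.0298 to 0.273 in 2i/LIF over VitC/LIF. Prodh ran from -0.183 to 0.132 in VitC/LIF over FBS/LIF, from -0.501 to 0.050 in F/A over L-Pro/LIF and from -0.314 to 0.238 in F/A over 2i/LIF. Aldh4a1 ran from -0.132 to 0.0416 in L-Pro/LIF over VitC/LIF and, in F/A, from -0.00335 to 0.354 over FBS/LIF, -0.101 to 0.254 over L-Pro/LIF and -0.139 to 0.218 over VitC/LIF. Pycrl ran from -0.419 to 0.0622 in L-Pro/LIF, -0.225 to 0.257 in VitC/LIF and -0.317 to 0.164 in 2i/LIF over FBS/LIF, from -0.483 to 0.0188 in F/A over L-Pro/LIF, -0.242 to 0.0742 in 2i/LIF over VitC/LIF and -0.302 to 0.0336 in L-Pro/LIF over 2i/LIF.

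The replicate number as a block gave 3 enzymes in L-Pro/LIF over FBS/LIF, as without it, and changed no count of enzymes called in the 10 pairs of media. The labels do not pair libraries. The deviations of same-numbered libraries correlated at 0.0985 to 0.518 between media, and the common biological coefficient of variation was 0.238 without the block and 0.189 with it. Depth limits Pycr1 most, with 60 to 222 estimated fragments per library.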
